A study of Mus musculus with 12 samples.

Results

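Expression of 5 genes was followed in 12 libraries of mouse pre-B cells that BCR-ABL1, the oncogene of Philadelphia chromosome-positive leukemia, had transformed. The genes were Prdm1, Irf4, Bach2, Bcl6 and Bach1, taken by symbol from a table of 12151 genes in which all 5 were present. Prdm1 encodes Blimp-1, a zinc finger repressor that drives B cells toward antibody-secreting plasma cells and silences Myc, Pax5 and other genes of B cell identity. Bach2 and Bcl6 are repressors that hold Prdm1 down, and both also act at the checkpoint at which pre-B cells are tested for a working pre-B cell receptor. Irf4 is an interferon regulatory factor that is induced by pre-B cell receptor signaling and that, at high levels, activates Prdm1 in plasma cells. Bach1 is the closest relative of Bach2 and represses genes of heme and oxidative stress responses.

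All libraries came from bone marrow of mice aged 6 to 12 weeks with the genotype Ctnnb1Ex3fl/+, in which 1 of the alleles of Ctnnb1, the β-catenin gene, can lose exon 3 through Cre and then gives a protein that escapes degradation. Cells were edited with Cas9 ribonucleoproteins carrying nontargeting guides (sgNTC, WT) or guides to Ikzf1 and Ikzf3 (sgIkzf1 Ikzf3, KO), the genes of the lymphoid factors Ikaros and Aiolos, and lines were grown from single cells. They then carried ERT2 (control) or tamoxifen-inducible Cre-ERT2 (stabilized β-catenin) from a vector with GFP, on which they were sorted. Each of the 2 genotypes thus gave an ERT2 and a Cre-ERT2 group, making 4 groups of 3 libraries, and the controls share the oncogene, the floxed allele and a vector with the treated cells. Day 1 after 4-hydroxytamoxifen, which activates Cre-ERT2, is recorded for every library, ERT2 and Cre-ERT2 alike. The labels name that day for chromatin experiments and give no separate time for RNA. The mouse strain and the clone behind each library are not given in the sources used here. The study examined more than 1 clone per genotype, but neither its text nor the labels assign clones or cultures to the libraries. Where replicates share a clone or culture, P values measure the spread between these libraries, which may be technical.

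Values are the authors' normalized expression on a log2 scale, and differences of log2 values are called changes. The median gene lay at 9.06 to 9.11 across libraries. No depth can be read from such values, and the precision comes from the replicates alone. Ikzf1 lay between 13.73 and 13.75 in ERT2 WT and between 14.74 and 14.76 in ERT2 KO libraries, a rise of 1.01, and Ikzf3 fell by 0.65. Loss of the proteins cannot be read from gene-level mRNA, and KO stands below for the libraries labelled KO. The study reports western blots that showed the deletion in its clonal lines, but the clone behind each library is not given. All 12 pre-B cell markers examined, Cd79a, Vpreb1 and Rag1 among them, were measured. Their summed unlogged level, as ppm of a library's total, was 6177 to 6331 ppm in ERT2 WT and 6312 to 6435 in Cre-ERT2 WT libraries. It was 4403 to 4417 ppm in ERT2 KO and 4081 to 4181 in Cre-ERT2 KO libraries. Such a sum mostly follows its most abundant markers. Taken gene by gene, more markers fell than rose between ERT2 and Cre-ERT2 libraries (limma adjusted p under 0.05). In WT 6 of the 12 fell and 3 rose (median change of all 12, -0.11). In KO 6 fell and 2 rose (median -0.077). The 3 of 10 myeloid markers with values (Lyz2, Cd68 and Itgam) summed to 8.94 to 9.39 ppm in WT and 16.0 to 19.6 ppm in KO libraries. Gene by gene, 2 of these 3 were called higher and 1 lower in ERT2 KO than in ERT2 WT (median change 0.061). In Cre-ERT2 libraries 1 was called higher and 1 lower (median 0.033). The 2 of 9 T cell markers with values (Lat and Cd5, which B cells can express too) summed to 75.8 to 77.7 ppm in ERT2 WT and 90.1 to 92.5 in Cre-ERT2 WT libraries. In KO they summed to 77.5 to 79.6 ppm without and 80.2 to 84.5 with stabilized β-catenin. Gene by gene, 2 of these 2 T cell markers were called higher with β-catenin in WT cells (median change 0.37). In KO cells 1 was called, and it was higher (median of the 2, 0.50). Of 6 erythroid markers none was measured, and of 6 stromal markers only Lepr was, at 0.307 to 0.323 ppm. The part of these marker differences in the results below was not tested.

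Prdm1 (ENSMUSG00000038151, GRCm38 chromosome 10, 44437177 to 44528501, minus strand) and Irf4 (ENSMUSG00000021356, chromosome 13, 30749226 to 30766976, plus strand) were the members that rose upon β-catenin stabilization in both backgrounds, and the 250 bases before their RefSeq start sites are therefore shown. Capitals mark a match to one of the motifs searched. The Prdm1 window is chr10:44458749-44458998 (GRCm38.p6, minus strand) and the Irf4 window is chr13:30748983-30749232 (plus strand), both printed 5′ to 3′.
Prdm1: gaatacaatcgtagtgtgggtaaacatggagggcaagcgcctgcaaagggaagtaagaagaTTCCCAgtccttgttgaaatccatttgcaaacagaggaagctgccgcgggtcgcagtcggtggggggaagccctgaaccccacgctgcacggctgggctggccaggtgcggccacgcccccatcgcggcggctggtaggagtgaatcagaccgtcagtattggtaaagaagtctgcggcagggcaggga
Irf4: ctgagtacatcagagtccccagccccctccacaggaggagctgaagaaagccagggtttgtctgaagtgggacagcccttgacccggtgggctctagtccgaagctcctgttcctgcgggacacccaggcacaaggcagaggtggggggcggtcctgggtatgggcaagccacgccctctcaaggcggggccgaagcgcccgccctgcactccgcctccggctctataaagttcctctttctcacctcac

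Both strands were searched for motifs, each given here with its share of all 32851 promoter windows of this length. They included the TCF/LEF core CTTTGNN, whose last letters were AA, AT, TA or TT (14.8%), and TGGGAA, a longer form of the Ikaros core (21.6%). The others were the IRF and Blimp-1 core GTGAAAG (3.57%), the Bcl6 motif TTCCTAGAA (0.347%) and the AP-1 core TGAGTCA that Maf recognition elements contain (4.46%). No motif's letters overlapped another's in these windows. All 5 genes matched the RefSeq table, with 6 windows because Bcl6 has 2 start sites. The single match was 1 TGGGAA in the Prdm1 window, on the opposite strand (TTCCCA), 189 bases before the start. These letters were not in the windows of Irf4, Bach2, Bcl6 and Bach1. The study names the shorter GGGAA as the Ikaros core, which was not among the motifs searched. Its letters, on either strand, also stand in the Bach2 and Bcl6 windows and elsewhere in the Prdm1 window. GENCODE places the outermost starts of Prdm1 and Bach2 farther upstream than their RefSeq windows, and sequence before those starts was not searched.

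Prdm1 rose by about the same amount upon β-catenin stabilization whether or not Ikzf1 and Ikzf3 had been edited, and without stabilization no difference between the 2 backgrounds was called. It measured 6.04, 5.99 and 6.00 in the ERT2 WT libraries (mean 6.01 ± 0.029, SD, n = 3) and 6.65, 6.67 and 6.70 in the Cre-ERT2 WT libraries (6.68 ± 0.025, SD, n = 3). In KO cells it measured 5.99, 5.98 and 5.98 with ERT2 (5.98 ± 0.0037, SD, n = 3) and 6.64, 6.64 and 6.60 with Cre-ERT2 (6.63 ± 0.024, SD, n = 3). In each background all Cre-ERT2 values lay above all ERT2 values, as did one group's over the other's, in either direction, for 31.1% of all genes in WT and 28.3% in KO. The rise was 0.66 (SE 0.023, limma adjusted p 2.20e-09) in WT and 0.64 (SE 0.023, limma adjusted p 1.65e-09) in KO cells, or 58.5% and 56.4% in unlogged units. By size, these changes ranked 22 and 34 among the 12151 genes. As these are bulk libraries, more cells with Prdm1 mRNA and more mRNA per cell cannot be told apart.

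The difference between the 2 rises of Prdm1 was -0.020 (95% interval -0.091 to 0.052, limma adjusted p 0.833). KO minus WT was -0.030 in ERT2 libraries (95% interval -0.080 to 0.021, limma adjusted p 0.293) and -0.049 in Cre-ERT2 libraries (-0.100 to 0.0012, limma adjusted p 0.0863). The WT and KO values did not overlap in either comparison, as held for 65.5% of all genes in ERT2 and 63.6% in Cre-ERT2 libraries, but the gaps were 0.0024 and 0.011. These values depended on scaling, with -0.062 and -0.083 after median centering of the libraries and -0.090 and -0.14 after quantile normalization, all 4 called. Among the 3 replicates of ERT2 KO the values differed by 0.0074, with a mean of 63.2 unlogged units. Per exonic length, Prdm1 lay between percentiles 15.4 and 20.5 of the table, and a transformation that compresses low values, which the sources do not state, would understate its change.

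Irf4 was the member whose response to stabilized β-catenin differed between backgrounds. It measured 12.29, 12.31 and 12.22 in ERT2 WT (mean 12.28 ± 0.048, SD, n = 3) and 12.51, 12.57 and 12.53 in Cre-ERT2 WT libraries (12.54 ± 0.032, SD, n = 3). The ERT2 KO libraries held 11.53, 11.49 and 11.49 (11.50 ± 0.025, SD, n = 3), and 12.01, 12.02 and 12.03 were found in KO cells with Cre-ERT2 (12.02 ± 0.0090, SD, n = 3). The 4 groups did not overlap, and their order from high to low was Cre-ERT2 WT, ERT2 WT, Cre-ERT2 KO and ERT2 KO. Of all genes, 31.1% in WT and 28.3% in KO cells had no overlap between ERT2 and Cre-ERT2 libraries. Between KO and WT libraries the shares were 65.5% with ERT2 and 63.6% with Cre-ERT2.

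Irf4 was lower in KO than in WT cells by -0.77 on the log2 scale in ERT2 libraries (95% interval -0.83 to -0.71, limma adjusted p 7.94e-11), a change of -41.5% in unlogged units. With stabilized β-catenin the difference was -0.52 (95% interval -0.58 to -0.46, limma adjusted p 3.73e-09). Upon stabilization Irf4 rose by 0.26 (SE 0.027, limma adjusted p 4.01e-05) in WT and by 0.51 (SE 0.027, limma adjusted p 5.71e-08) in KO cells. The rise was larger in KO cells by 0.25 (95% interval 0.17 to 0.34, limma adjusted p 0.00214), a test passed by 4.53% of all genes (2.71% higher and 1.82% lower in KO cells). It kept this call in 20 of 20 alternatives (0.23 to 0.28, limma adjusted p 0.000707 to 0.00987). In unlogged units Irf4 gained 986 ± 121 (SE) in WT, 19.9% of the ERT2 mean, and 1244 ± 33.0 (SE) in KO cells, 42.8% of it. All 3 Cre-ERT2 KO libraries still lay below the lowest ERT2 WT library.

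**Figure D1:**
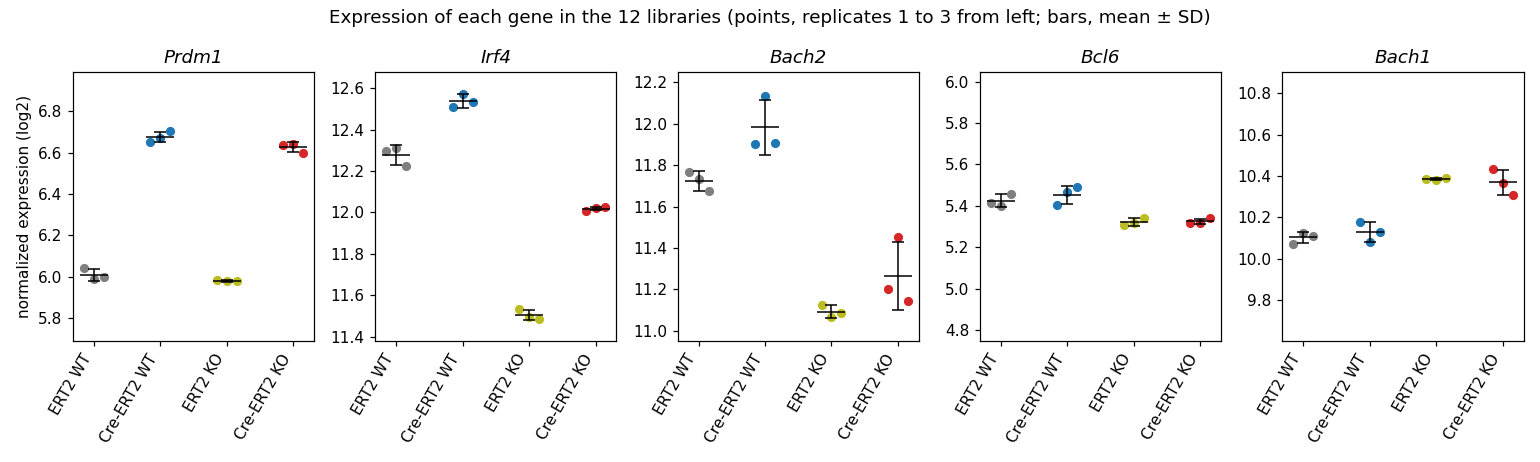
Normalized expression (log2, vertical axis, each panel spanning the same range) of the 5 genes in each library, by group along the horizontal axis. Points are replicates 1 to 3 from left to right and bars give the mean ± SD. Prdm1 separates Cre-ERT2 from ERT2 libraries, Irf4 separates all 4 groups, and replicate 2 is the highest Bach2 value in both Cre-ERT2 groups.

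Bach2 (ENSMUSG00000040270, chromosome 4, 32238804 to 32586108, plus strand), the repressor opposed to Prdm1, was lower in KO than in WT cells. It measured 11.77, 11.73 and 11.67 in ERT2 WT (mean 11.72 ± 0.047, SD, n = 3) and 11.12, 11.07 and 11.09 in ERT2 KO libraries (11.09 ± 0.030, SD, n = 3). With Cre-ERT2 it measured 11.90, 12.14 and 11.91 in WT (11.98 ± 0.13, SD, n = 3) and 11.20, 11.45 and 11.14 in KO cells (11.27 ± 0.16, SD, n = 3). No KO library reached the lowest WT library. Such separation of KO from WT, in either direction, held for 65.5% of all genes in ERT2 and 63.6% in Cre-ERT2 libraries. KO minus WT was -0.63 in ERT2 (95% interval -0.79 to -0.47, limma adjusted p 1.03e-05) and -0.72 in Cre-ERT2 libraries (-0.88 to -0.55, limma adjusted p 3.11e-06), changes of -35.4% and -39.1% in unlogged units.

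The Cre-ERT2 libraries of Bach2 spread more widely than the ERT2 libraries, with replicate 2 above the mean of the other two by 0.23 in WT and by 0.28 in KO cells. Upon β-catenin stabilization Bach2 rose by 0.26 (95% interval 0.096 to 0.42, limma adjusted p 0.0412) in WT cells, close to the threshold. The call held in 9 of 21 alternatives (limma adjusted p 0.00783 to 0.152). It was lost when any ERT2 WT library, any ERT2 KO library, or replicate 2 or 3 of Cre-ERT2 WT was left out, with a change of 0.18 (limma adjusted p 0.152) without Cre-ERT2 WT replicate 2. Without replicate 2 of both Cre-ERT2 groups, a setting chosen after these values were seen, the change was 0.18 (limma adjusted p 0.00783). In KO cells the change was 0.17 (limma adjusted p 0.168), whose 95% interval for this gene alone ran from 0.011 to 0.33. The difference between the backgrounds was -0.085 (95% interval -0.31 to 0.14, limma adjusted p 0.758).

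Bcl6 (ENSMUSG00000022508, chromosome 16, 23965052 to 23988852, minus strand), which protects pre-B cells from DNA damage responses, was weakly expressed, at percentiles 10.1 to 11.3 of the table per exonic length. It measured 5.41, 5.40 and 5.46 in ERT2 WT (mean 5.42 ± 0.032, SD, n = 3) and 5.40, 5.47 and 5.49 in Cre-ERT2 WT libraries (5.45 ± 0.044, SD, n = 3). In KO cells it measured 5.305, 5.32 and 5.34 with ERT2 (5.32 ± 0.019, SD, n = 3) and 5.32, 5.32 and 5.34 with Cre-ERT2 (5.32 ± 0.013, SD, n = 3). ERT2 and Cre-ERT2 values overlapped in both backgrounds, and the β-catenin effect was 0.030 in WT (95% interval -0.022 to 0.083, limma adjusted p 0.496) and 0.0021 in KO cells (-0.050 to 0.054, limma adjusted p 0.972). All KO values lay below all WT values. KO and WT values also had no overlap for 65.5% of all genes in ERT2 and 63.6% in Cre-ERT2 libraries. KO minus WT was -0.10 in ERT2 (SE 0.024, limma adjusted p 0.00286) and -0.13 in Cre-ERT2 libraries (SE 0.024, limma adjusted p 0.000482), or -2.92 and -3.77 unlogged units, differences that compression could likewise understate.

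Bach1 (ENSMUSG00000025612, chromosome 16, 87698945 to 87733346, plus strand) moved opposite to Bach2 between the backgrounds. It measured 10.07, 10.13 and 10.11 in ERT2 WT (mean 10.10 ± 0.027, SD, n = 3) and 10.18, 10.08 and 10.13 in Cre-ERT2 WT libraries (10.13 ± 0.048, SD, n = 3). In KO cells it measured 10.39, 10.38 and 10.39 with ERT2 (10.39 ± 0.0039, SD, n = 3) and 10.43, 10.37 and 10.31 with Cre-ERT2 (10.37 ± 0.061, SD, n = 3). All KO values lay above all WT values, and 65.5% of all genes in ERT2 and 63.6% in Cre-ERT2 libraries likewise had no overlap between KO and WT. KO minus WT was 0.28 in ERT2 (SE 0.033, limma adjusted p 1.02e-05) and 0.24 in Cre-ERT2 libraries (SE 0.033, limma adjusted p 4.48e-05). The β-catenin effect was 0.027 (95% interval -0.046 to 0.099, limma adjusted p 0.697) in WT and -0.017 (-0.090 to 0.056, limma adjusted p 0.812) in KO cells.

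Of the 5 genes, 3 were called for β-catenin in WT cells, where 11.9% of all genes were, and 2 in KO cells (12.6%). Between KO and WT cells 4 of 5 were called in ERT2 libraries, against 59.0% of all genes, and 4 of 5 in Cre-ERT2 libraries, against 58.9%, so that a call there is common in the table. The size of the falls of Irf4 and Bach2 was less common, as 891 called genes changed by at least 0.5 between ERT2 KO and ERT2 WT. The exact 2-sided permutation test of single genes gave 0.1, the smallest p that 3 against 3 libraries allow, wherever the 2 groups did not overlap.

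**Figure D2:**
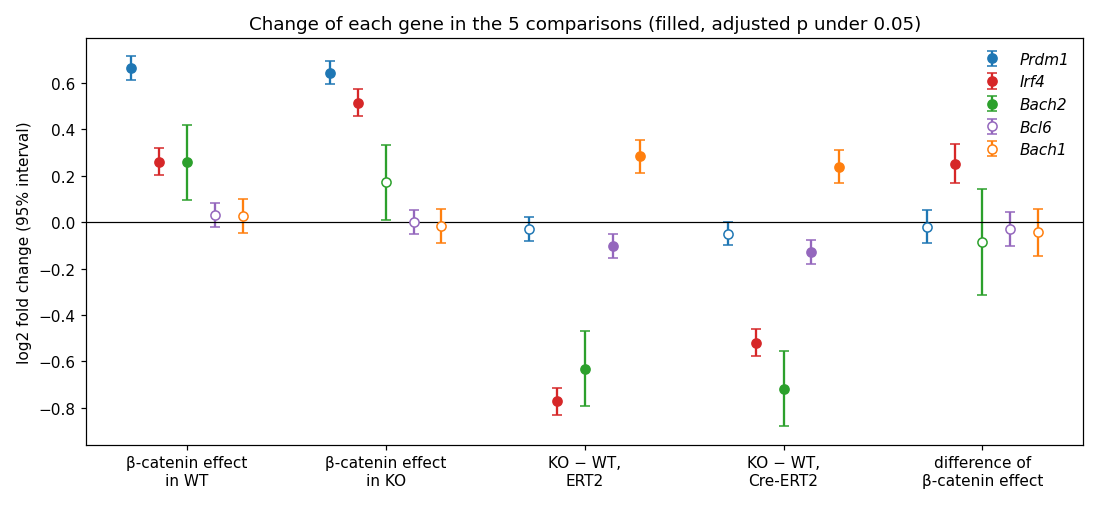
Log2 fold change with its 95% interval (vertical axis, limma, not adjusted for the number of genes) of each gene in the 5 comparisons (horizontal axis). Filled points passed an adjusted p under 0.05. Prdm1 lies near 0.65 in both backgrounds, and Irf4 is the only filled point for the difference of the β-catenin effect.

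Because Prdm1 and Bach2 oppose each other, their balance was followed within each library as log2 Prdm1 minus log2 Bach2, set to 0 at the ERT2 WT mean. It was 0.46, 0.25 and 0.51 in Cre-ERT2 WT libraries, 0.57, 0.63 and 0.60 in ERT2 KO libraries and 1.15, 0.90 and 1.17 in Cre-ERT2 KO libraries. Prdm1 was thus highest relative to Bach2 where both perturbations were combined, and the Cre-ERT2 WT and ERT2 KO libraries lay between that group and the controls. The shift in Cre-ERT2 WT came with a higher Prdm1 and some rise of Bach2, and that in ERT2 KO with a lower Bach2. Prdm1 minus Irf4 averaged 0.40 ± 0.035, 0.74 ± 0.022 and 0.87 ± 0.031 (SD, n = 3) in these groups, in the same order. Bach2 minus Bach1 averaged 0.23 ± 0.18, -0.92 ± 0.028 and -0.73 ± 0.17 (SD, n = 3). These balances restate the members' own values and were not tested.

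**Figure D3:**
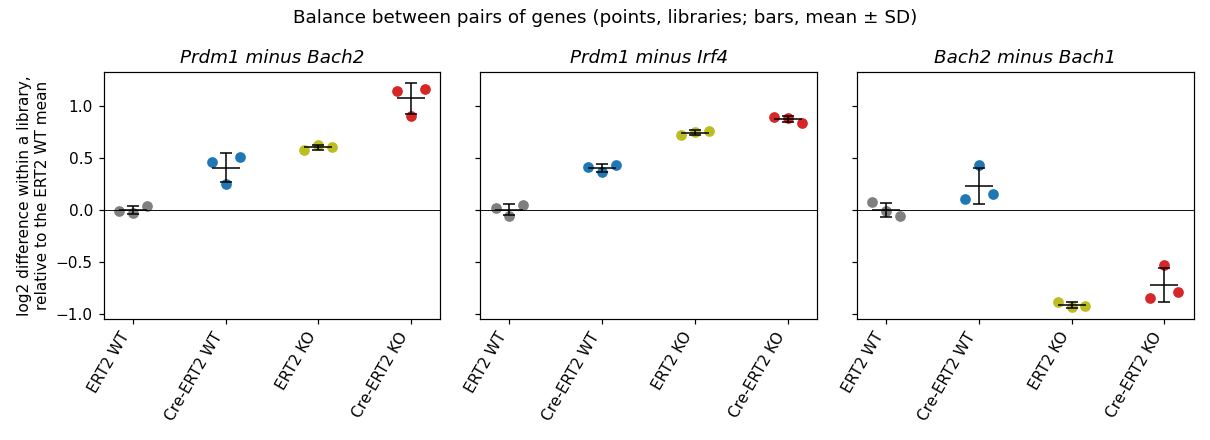
Difference of log2 values between 2 genes within a library, relative to the ERT2 WT mean (vertical axis), by group (horizontal axis). Points are libraries and bars give the mean ± SD, and Prdm1 minus Bach2 is highest in Cre-ERT2 KO libraries (0.90 to 1.17).

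The genes around these factors were described by lists written from general knowledge. Counts below leave the 5 members out, and the median change over all genes lay between -0.00041 and 0.0016 in the 4 comparisons of groups. Of 19 other B cell genes that Blimp-1 is known to repress, 6 rose and 4 fell with β-catenin in WT cells (median 0.035), and 4 rose and 7 fell in KO cells (median -0.056). The 11 calls in KO cells became 7 without replicate 2 of ERT2 KO and 7 without replicate 2 of Cre-ERT2 KO. Over all genes, 5.93% were called higher and 5.95% lower in WT and 7.27% and 5.33% in KO cells. Myc fell by 0.62 in WT and by 0.31 in KO cells (limma adjusted p 6.69e-10 and 3.11e-07). Pax5, the factor of B cell commitment, fell by 0.22 and 0.30. Cxcr5, a chemokine receptor, rose by 0.45 in WT (limma adjusted p 4.03e-06) and was not called in KO cells (0.098). Ets1, a lymphoid transcription factor, rose by 0.27 in WT and fell by 0.10 in KO cells. Syk, the kinase downstream of the pre-B cell receptor, rose by 0.15 in WT and by 0.52 in KO cells. The list therefore held called genes of both directions in each background while Prdm1 was higher in both.

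Between KO and WT cells without stabilization, 6 of these 19 genes were higher and 11 lower (median -0.17). Over all genes the split was 29.8% higher and 29.3% lower, and it depended on scaling (3616 higher and 3559 lower, against 2866 and 4747 after median centering). Spib, a partner of Irf4 on composite sites, fell by 2.80 (limma adjusted p 3.04e-14), Cxcr5 fell by 1.27 and Syk fell by 0.89, whereas Myc rose by 1.10. With stabilized β-catenin 6 were higher and 13 lower (median -0.29), against 30.4% and 28.6% over all genes (3688 and 3473, or 2983 and 4789 after median centering).

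Of 20 other plasma cell genes with values, 4 rose and 2 fell with β-catenin in WT (median -0.019) and 7 rose and 1 fell in KO cells (median 0.059). Cd28, a costimulatory receptor of T cells and plasma cells, rose by 0.44 in WT and by 1.96 in KO cells (limma adjusted p 2.05e-06 and 1.13e-12). Slamf7, a surface receptor of plasma cells and other leukocytes, rose by 0.63 in both. Sdc1, a plasma cell marker named here after its values were seen, changed by -0.17 in WT and -0.11 in KO cells. Both falls were called (limma adjusted p 0.00202 and 0.0304). Xbp1, the transcription factor of the secretory program, named here after its values were seen, changed by -0.029 in WT (limma adjusted p 0.636) and 0.088 in KO cells (limma adjusted p 0.0881). In the summed levels of plasma cell markers with values (Sdc1, Mzb1, Xbp1, Igkc and Ighm, of which pre-B cells also express several) Cre-ERT2 WT libraries lay at 1920 to 1950 ppm against 1957 to 1992 in ERT2 WT. In KO cells these sums were 1164 to 1230 with and 1229 to 1256 without stabilized β-catenin. The defining markers Jchain and Tnfrsf17 were looked for but had no values among the genes measured. At baseline 7 of the 20 genes were higher and 12 lower in KO than in WT cells (median -0.23), Slamf7 by -1.99 and Mzb1, a chaperone of antibody assembly, by -0.51. With stabilized β-catenin 7 were higher and 11 lower (median -0.14).

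Among 18 other genes that Bcl6 is known to repress, 3 rose and 4 fell with β-catenin in WT (median 0.0054) and 6 rose and 3 fell in KO cells (median 0.038), while Bcl6 itself was not called. Bcl2, an inhibitor of apoptosis, rose by 0.65 and 0.47 (limma adjusted p 2.08e-07 and 2.54e-06). Cd69, an early activation receptor, rose by 0.60 in WT and by 0.41 in KO cells (limma adjusted p 8.73e-07 and 1.80e-05). In ERT2 libraries 8 were higher and 8 lower in KO cells (median -0.043), with a change of -1.15 for Ccnd2, a D-type cyclin, and of -0.97 for Bcl2. In Cre-ERT2 libraries 6 were higher and 8 lower (median -0.10). Of 18 Bach target genes, 1 rose and 4 fell with β-catenin in WT (median -0.047), and 1 rose and 3 fell in KO cells (median -0.0067). The 5 calls in WT were not stable, with 1 to 3 genes called when any of the 6 WT libraries was left out, and 1 each without replicate 2 of ERT2 WT or of Cre-ERT2 WT. Txnrd1, a redox enzyme, fell by 0.13 and 0.27, and Hk2, a hexokinase, by 0.14 and 0.19. Between KO and WT cells, where Bach2 was lower and Bach1 higher, 7 of the 18 were higher and 7 lower in ERT2 libraries (median -0.065), and 7 and 5 in Cre-ERT2 libraries (median 0.0086). Hk2 rose by 0.78, Gapdh rose by 0.51 and Tfrc, the transferrin receptor, fell by 0.92. The Bach list was not split by whether Bach proteins repress or activate a gene, so its counts and medians have no expected direction.

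**Figure D4:**
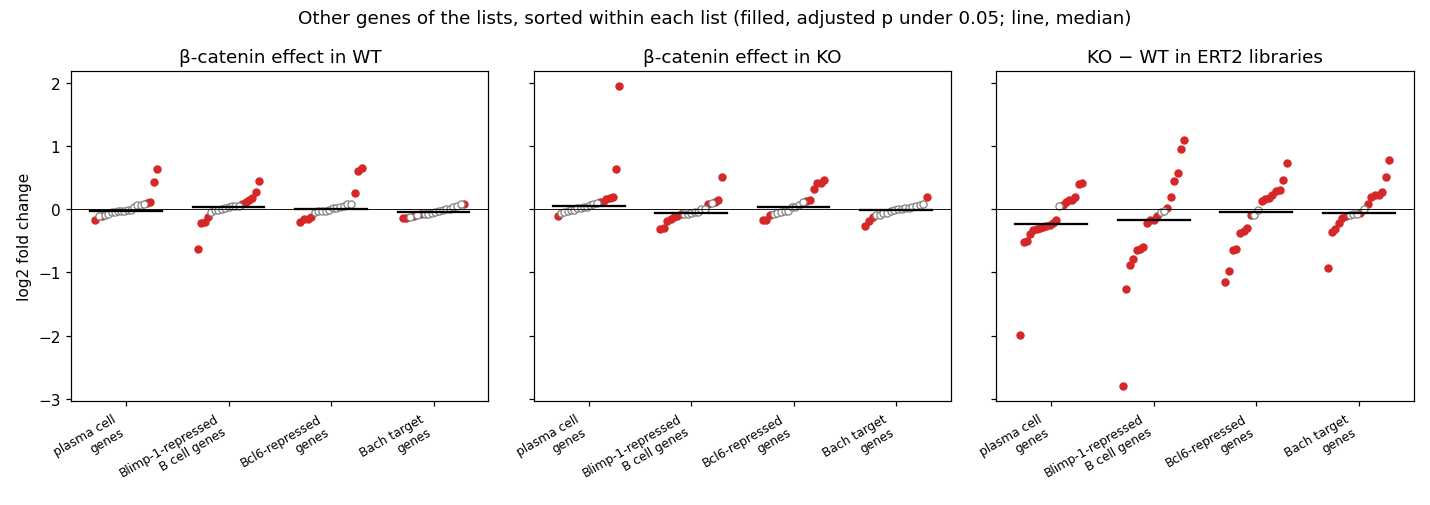
Log2 fold change (vertical axis) of the other genes of 4 lists (horizontal axis, genes sorted within a list) in 3 comparisons. Filled points passed an adjusted p under 0.05 and lines give the median, which lies near 0 in both β-catenin comparisons while single genes such as Cd28 (1.96 in KO cells) stand apart.

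Among the 7 other interferon regulatory factors with values, 2 rose and none fell with β-catenin in WT (median 0.049), and 2 rose and 1 fell in KO cells (median 0.036). With Irf4 counted, the 4 calls in KO cells became 2 without replicate 1 or 2 of Cre-ERT2 KO. Irf8, which shares pre-B cell functions with Irf4, rose by 0.18 and 0.15. Between KO and WT cells Irf8 went the opposite way to Irf4, with a rise of 0.96 in ERT2 libraries (limma adjusted p 1.40e-11), while Irf9 fell by 0.51. In both comparisons of KO with WT 3 of the 7 were higher and 4 lower (medians -0.077 and -0.086). Of 6 other PRDM genes with values, Prdm11 rose in WT (0.13, limma adjusted p 0.0383) and none was called in KO cells, where 1 had an unadjusted limma p under 0.05 (medians 0.012 and 0.039). At baseline 3 were lower and none higher in KO cells, Prdm2 by -0.48 (median -0.091), and with stabilized β-catenin 2 were lower (median -0.065). The 3 calls at baseline became 1 without replicate 3 of ERT2 WT or replicate 2 of ERT2 KO, and in WT cells only Prdm1 of this family was called without replicate 2 or 3 of either WT group. Of 9 other relatives of Bach and Bcl6, Nfe2l2, the activator that competes with Bach proteins for shared sites, fell by 0.19 in WT and none was called in KO cells, where 1 had an unadjusted limma p under 0.05 (medians -0.0082 and -0.0069). It was also lower in ERT2 KO than in ERT2 WT libraries, by -0.48. In both comparisons of KO with WT 2 of the 9 were higher and 3 lower (medians -0.011 and 0.0096).

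Of 28 corepressors and dimer partners with values, 4 rose and 4 fell with β-catenin in WT (median -0.014) and 3 rose and 4 fell in KO cells (median -0.017). The 8 calls in WT became 5 without replicate 1 or 3 of ERT2 WT and 4 without replicate 1 or 3 of Cre-ERT2 WT. Batf, which pairs with Irf4 on AP-1 composite sites, rose by 0.27 in WT and by 0.14 in KO cells (limma adjusted p 0.000548 and 0.0289). Jund, an AP-1 subunit, fell by 0.32 in both. Between KO and WT cells 11 were higher and 9 lower in ERT2 libraries as well as in Cre-ERT2 libraries (medians 0.0080 and 0.012), with Hdac5, a histone deacetylase, higher by 0.80. Of 27 upstream regulators, 5 rose and 2 fell in WT (median 0.037) and 6 rose and 6 fell in KO cells (median -0.015). Tcf7, a nuclear partner of β-catenin, rose by 0.26 and 0.85, and Myb, a progenitor transcription factor, by 0.43 and 0.40. Between KO and WT cells 11 were higher and 10 lower in ERT2 libraries, and 11 and 14 in Cre-ERT2 libraries (medians -0.030 and -0.067). All counts of upstream regulators include the manipulated genes Ikzf1, Ikzf3 and Ctnnb1. Between ERT2 KO and ERT2 WT these changed by 1.01, -0.65 and 0.17, each called. An unequal β-catenin response of KO and WT cells, called for 4.53% of all genes, was called for 6 of the 19 genes that Blimp-1 represses (2 higher and 4 lower in KO cells) and for 6 of the 27 upstream regulators (1 higher and 5 lower). The upstream count became 3 with a replicate block and when replicate 1 of any group, replicate 2 or 3 of Cre-ERT2 WT, replicate 3 of ERT2 KO or replicate 2 of Cre-ERT2 KO was left out. It was 2 without replicate 2 of both Cre-ERT2 groups. The edited gene Ikzf1 was 1 of the 6 upstream regulators called with all libraries (-0.10). Among the 20 plasma cell genes, the 18 Bach targets and the 18 genes that Bcl6 represses, 2 each were called. Leaving out single libraries gave 0 to 2 Bach targets, with 0 without replicate 2 of either WT group or replicate 3 of ERT2 KO, and the Bcl6 list, with Irf4 counted, went from 3 to 5 without replicate 3 of Cre-ERT2 KO. By limma none was called among the corepressors and partners, interferon regulatory factors, PRDM genes and relatives of Bach and Bcl6, of which 6, 0, 0 and 1 had an unadjusted p under 0.05.

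Genes with the most similar pattern were found by the root mean square difference of centered log2 values over the 12 libraries, which share their group structure. For Irf4 these were Ctse (difference 0.043, Pearson's r 0.996), Prkcb (0.059, r 0.994) and Syk (0.060, r 0.989). Prkcb averaged 12.81 in ERT2 WT, 13.10 in Cre-ERT2 WT, 12.16 in ERT2 KO and 12.66 in Cre-ERT2 KO libraries, in the same order of groups as Irf4. For Prdm1 they were Klhl32 (0.107, r 0.998), Cd69 (0.109, r 0.957) and Slc43a1 (0.120, r 0.966). Bach2 was most like Pkig (0.092, r 0.968), Il21r (0.095, r 0.981) and Pydc3 (0.095, r 0.967). Bcl6 was closest to Ckap2 (0.022, r 0.938) and Bach1 to Slco4a1 (0.028, r 0.981), both with small differences because their own changes were small.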

How the data were processed

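Polyadenylated RNA of 12 libraries was sequenced. According to the submitters' processing notes and the study's methods, reads were quantified with Salmon 1.4.0, aligned with STAR 2.7.6 to mm10 (GRCm38) and analyzed with DESeq2 1.30.1. The values deposited are on a log2 scale, 1 for each gene in each library, and had been normalized by the authors. The transformation and the filter on genes are not given in the sources used here, and read counts and depth are unknown. Every per-sample column was matched to 1 library by its name.

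The 4 group means were fitted to all 12151 genes and 12 libraries with limma 3.58.1 in R 4.3.3 (eBayes with trend, no covariate), and P values were adjusted over all genes with the Benjamini-Hochberg method. Calls were made at an adjusted p under 0.05. The design assumed log2 values, so no pseudocount was needed. The script was tested on simulated data. For single genes an exact 2-sided permutation test was added. Gene positions and exonic lengths are from GENCODE M21 and promoter windows from RefSeq (GRCm38.p6). Named genes were the 5 members, Myc and Pax5, the targeted genes and, per list, the 3 largest called changes in each β-catenin comparison and in ERT2 KO against ERT2 WT. A gene of the lists is not reported here and was left out of their counts and sums. Members and lists were chosen with earlier results of these data known. Alternatives changed scaling, pseudocount, filter, prior, samples, replicate block and left-out libraries.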

Additional observations from a re-analysis of the deposited data

Results flagged for a closer look

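The response to stabilized β-catenin was unequal in KO and WT cells for the following genes, by limma's interaction test. With 3 libraries a group, single outlying libraries were not tested for. Irf4 rose more in KO cells, by 0.25. Among other genes named from the lists, the effect was higher in KO cells for Cd28 (1.52), Tcf7 (0.58), Ccnd2 (0.47), Syk (0.37) and Myc (0.31, a smaller fall). It was lower in KO cells for Ets1 (-0.37), Cxcr5 (-0.35) and Ikzf1 (-0.10). These genes were named for their changes in the same libraries, so their number is not a result.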

How the results depend on the processing

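Depth is unknown and limits what can be said of Prdm1 and Bcl6, whose values are low. Irf4 kept all 5 of its calls in every alternative run. Prdm1 kept both of its calls for β-catenin, and Bach2, Bcl6 and Bach1 kept theirs between KO and WT cells. The filter on means above 8 left out Prdm1 and Bcl6. KO against WT was newly called for Prdm1 after median centering (-0.062 in ERT2, -0.083 in Cre-ERT2) and quantile normalization (-0.090 and -0.14). The rise of Bach2 in WT lost its call with quantile normalization (0.25) and, at an unchanged 0.26, with only the 6 WT libraries, without trend and with a robust prior. Leaving out libraries gave 0.18 to 0.30. The cause was not tested.

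Counts of called genes stayed within 1.5 times except 934 for β-catenin in KO with only those groups, and for the difference 337 with the filter, where fewer genes were tested. Leaving out single libraries, or replicate 2 of both Cre-ERT2 groups (308, chosen after seeing the data), the difference was called for 308 to 595 genes. Of the list counts, 77 of 936 moved by over 1.5 times. Replicate numbers gave no clear sign of pairing. Same-numbered libraries deviated together with r from -0.091 to 0.31, others from -0.35 to 0.36, and 5 of 12 libraries correlated best with their own number. Pairing under other numbers was not tested. With a replicate block no call of the 5 genes changed, Bach2 in WT gave an adjusted p of 0.0232 by limma, and 424 genes were called for the difference.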
